A study of Homo sapiens with 12 samples.

Results

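A set of 215 genomic regions carried a KDM2B peak in both K562 and JURKAT and in none of 5 other human leukaemia cell lines. They were found by merging the KDM2B peaks of all 7 lines that overlapped by at least 1 bp and keeping the regions with a peak of exactly these lines. They make up 0.74% of the 29071 merged regions, 4.15% of the 5183 regions with a K562 peak and 2% of the 10737 regions with a JURKAT peak. The regions were chosen by the presence and absence of listed peaks, and the pair was itself chosen because it has many of them, so their number, scores and widths are given as a description with no test.

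The study profiled KDM2B by ChIP-seq, the sequencing of DNA fragments pulled down with an antibody, in cultures grown in IMDM with serum, with an anti-KDM2B antibody from Millipore. K562 derives from the blast crisis of a chronic myeloid leukaemia and has erythroid features. JURKAT is a T-cell acute lymphoblastic leukaemia (T-ALL) line. The 5 lines in which the regions have no peak are 3 further T-ALL lines (DND41, HPB-ALL and SIL-ALL) and 2 B-cell precursor lines (REH and SUP-B15), lineages that come from general knowledge of these lines and not from the labels. There was 1 library and 1 list of peaks for each line, with no replicate, so a region of a line cannot be told apart from a region of its library. An input library is labelled for K562 and, among the samples used here, none for JURKAT.

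KDM2B is a JmjC-domain demethylase of histone H3 that binds unmethylated CpG dinucleotides through its CXXC zinc finger and is thereby found at CpG islands. It brings a variant Polycomb repressive complex with PCGF1 and BCOR to these islands, which then mono-ubiquitinates histone H2A. CpG islands of developmental transcription factor genes that are silent in a cell type are typical Polycomb targets, and KDM2B itself is known for roles in haematopoietic stem cells and in leukaemia.

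K562 shared far more regions alone with JURKAT than with any other T-ALL line. The count was 215 with JURKAT, against 85 with SIL-ALL, 61 with DND41 and 59 with HPB-ALL. With the B-cell precursor lines K562 shared 106 regions alone (REH) and 80 (SUP-B15). JURKAT shared fewer regions alone with these B-cell lines than with K562, 134 with REH and 115 with SUP-B15, but more with its fellow T-ALL lines, 365 to 606. Among the 12 pairs that join a T-ALL line to K562 or a B-cell line, K562 with JURKAT had the highest count, and the next was JURKAT with REH. List lengths ran as follows. JURKAT had 14839 peaks, close to the 14944 of DND41 and the 15304 of SIL-ALL, and HPB-ALL had 12765. K562 had the shortest list, 5942 peaks.

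The lists did not stop at one score, and whether this bears on the count was not tested. The score is the peak caller's own value per peak. The lowest score was 50 in K562, JURKAT, REH and SUP-B15, 60 in DND41, and 80 in SIL-ALL and HPB-ALL, so JURKAT was the T-ALL line whose list reached as low as that of K562. In 134 of the 215 regions the K562 peak, the JURKAT peak or both scored below 80.03, the highest of the 7 lowest scores. In 81 regions both lines reached it. Line by line, the best peak was below 80.03 in 37.7% of the regions for K562 and in 37.7% for JURKAT. Of all single peaks, 45.5% were below it in K562 and 50.1% in JURKAT. These shares are not like for like, since a region was read by its best peak. When all lists were read down to this common floor, K562 and JURKAT shared 105 regions alone, against 67 for K562 with SIL-ALL, 53 with HPB-ALL and 28 with DND41. When each list was held to its 5942 top-scored peaks, K562 shared 182 regions alone with JURKAT, against 97 with SIL-ALL, 97 with HPB-ALL and 72 with DND41, and 153 with REH. In both readings K562 with JURKAT had the highest count of the 12 pairs. Both readings are cut from the lists by which the pair was chosen, so they give its count no separate support. The regions were not all the same ones: 81 of the 215 remained with the common floor and 117 with equal lists. The upper 50% of each list by score gave 116 regions, and 75 of the 215 had a K562 and a JURKAT peak that overlapped by 50% of both.

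**Figure D1:**
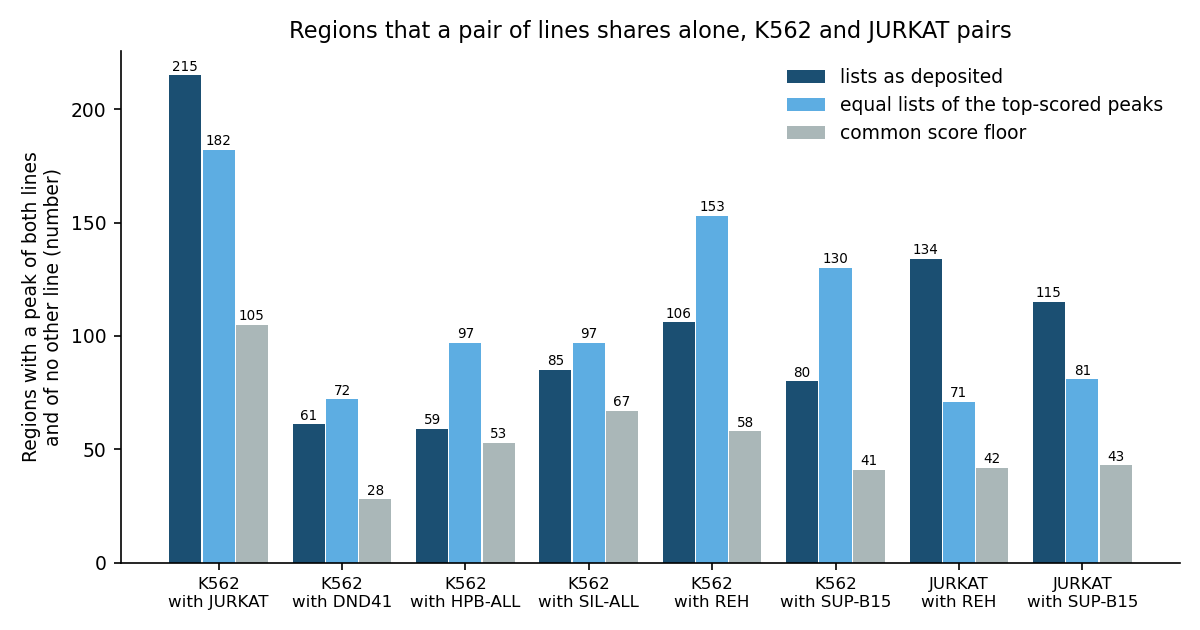
Number of regions (vertical axis) that K562 shares alone with each of its partners, K562 with JURKAT leftmost, followed by JURKAT with REH and with SUP-B15; dark blue bars are the deposited lists, light blue bars equal lists of the 5942 top-scored peaks and grey bars lists with a common score floor. K562 with JURKAT has the tallest bar of each colour, 215, 182 and 105.

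Most of the 215 regions were short and simple. The median width was 726 bp, with a middle range from 530 to 1132 bp, and the regions covered 207.9 kb in all. They held 235 K562 peaks and 291 JURKAT peaks, and 153 regions (71.2%) had exactly 1 peak of each line. In 52 regions JURKAT had 2 or more peaks, and in 18 regions K562 had. K562 peaks were the broader ones: the K562 peaks of a region summed to a median of 670 bp and the JURKAT peaks to 313 bp. Over whole lists the median peak width was 552 bp in K562 and 240 bp in JURKAT. In 100 regions every JURKAT peak lay inside a K562 peak, in 3 every K562 peak lay inside a JURKAT peak, and in the other 112 the peaks overlapped in part. The longest stretch common to a K562 and a JURKAT peak had a median of 237 bp, and the centres of the best peaks of the lines were a median of 187 bp apart.

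A small group of the regions was wide. Of the 215 regions, 19 (8.84%) spanned 2 kb or more, against 0.71% of all 4648 regions with peaks of exactly 2 lines. There 33 did so, the 19 of the set among them. Most pairs of lines lack K562, whose median peak width of 552 bp was the largest, against 213 to 350 bp in the other lists. K562 with REH had 6 such regions among its 106, K562 with DND41 had 2 among 61, and K562 with HPB-ALL, SIL-ALL or SUP-B15 had none. K562 with REH was also the nearest pair in the other readings. With the common floor the share was 19.0% in K562 with JURKAT and 13.8% in K562 with REH. With equal lists it was 11.5% and 6.54%. The widest lay in 22q11.21 (chromosome 22, 20782849 to 20787055, 4207 bp), 9q34.12 (chromosome 9, 133970969 to 133975144, 4176 bp) and 6p25.2 (chromosome 6, 3226634 to 3230618, 3985 bp). All 3 were single K562 peaks with high scores, 1206, 1277 and 978, and the JURKAT peaks inside them scored 336, 140 and 66.9. Band 9q34.12 holds ABL1, the kinase gene of the BCR-ABL1 fusion that K562 carries. In 9q34.12 the wide region and another of the set spanned 53.2 kb, with 14 other merged regions between them. None of these 14 had a peak of a line other than K562 and JURKAT. In 22q11.21 the 3 regions of the set spanned 618 kb, with 27 other merged regions between them, 9 with a peak of another line. Copy number was not used, so its bearing on the regions of these bands was not tested. Whether the wide 9q34.12 region touches ABL1 was not determined, since no gene annotation of the files' build was used here. Every gene named with a band below is background on the band in the same sense. Genes were picked from general knowledge and for some bands only, so their names show no common theme of the regions.

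By their best peaks, the regions ranked somewhat above the middle of both deposited lists. A percentile here is the share of a list's peaks that score at or below a peak, and the best peak of a region was used. The best of several peaks tends to rank above a single peak, and no median over all regions of a line was taken for comparison. The median percentile was 57.1 in the K562 list and 64.4 in the JURKAT list. With equal lists it was 54.1 in K562 and 49.2 in JURKAT, taken anew within the 5942 peaks kept. The JURKAT value there is a rank among top-scored peaks alone and cannot be set against 64.4. Where the peaks had to overlap by 50% of both, the median percentile in the deposited lists was 30.6 in K562 and 75.2 in JURKAT. The rank above the middle did not hold in K562 there. The K562 scores ran from 50.1 to 1277 with a median of 96.6, and the JURKAT scores from 50.2 to 766 with a median of 98.7. In 75 regions the peaks of both lines stood at or above percentile 50, in 30 both stood below it, and in 11 both reached percentile 90. Those 11 are 5.12% of the set, against 1.1% of all regions of exactly 2 lines and 8.83% of the regions that K562 and JURKAT share with at least 1 further line. The pairs nearest to the set were REH with SUP-B15 at 4.49% and K562 with REH at 3.77%. The percentiles of the lines went together weakly: over the 215 regions Pearson's r was 0.12 and Spearman's rho 0.16. In regions common to all 7 lines the same values were 0.25 and 0.29 over 709 regions. With equal lists the values for K562 with JURKAT alone were higher, 0.30 and 0.31 over 182 regions, and with the common floor they were 0.17 and 0.22 over 105 regions. A K562 peak ranked higher in 105 regions and a JURKAT peak in 110.

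**Figure D2:**
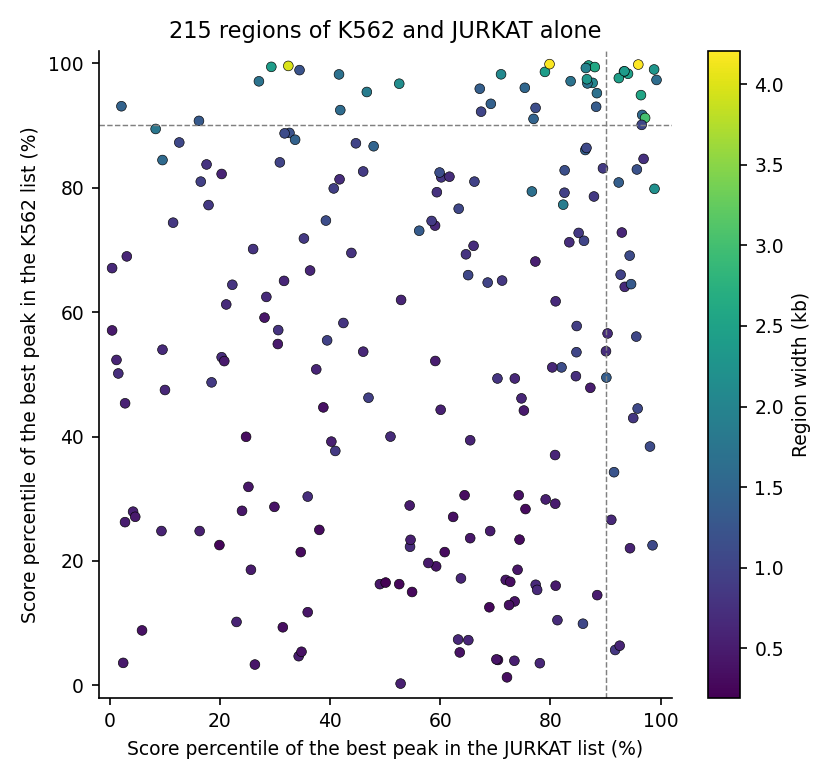
Score percentile of the best K562 peak (vertical axis, %) against that of the best JURKAT peak (horizontal axis, %) for each of the 215 regions, 1 point a region, coloured by region width in kb; dashed lines mark percentile 90. The points fill the whole square, 11 lie in the upper right corner, and the widest regions sit at the top, at high K562 percentiles.

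The region with the highest mean percentile lay in 4p16.3 (chromosome 4, 2418150 to 2420443). It scored 746 in K562 and 604 in JURKAT, percentiles 99.0 and 98.8, the most even of the strong regions. It is also an exception among them, since a peak of another line lay 99 bp away. Band 4p16.3 holds the growth factor receptor gene FGFR3 and the histone methyltransferase gene NSD2.

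The second lay in 2q31.1 (chromosome 2, 176994128 to 176995743), with scores of 515 in K562 and 766 in JURKAT, the highest JURKAT score of the set. The peaks of the lines overlapped by 1290 bp, the longest common stretch of any region, and the nearest peak of another line was 31.8 kb away. Band 2q31.1 holds the HOXD cluster of homeobox genes, which pattern limbs and the body axis. It was also the band with most regions of the set, 6.

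The third was the wide region in 22q11.21 described above (percentiles 99.8 in K562 and 95.9 in JURKAT), in the band of the T-box gene TBX1. The fourth lay in 11q23.2 (chromosome 11, 113930239 to 113932693), the band of the zinc finger transcription factor gene ZBTB16, and scored 623 in K562 and 276 in JURKAT. Next came 7q32.2 (chromosome 7, 129418355 to 129420728), with scores of 684 in K562 and 261 in JURKAT. In each of these 3 regions the JURKAT peaks, 2 to 4 in number, lay inside 1 K562 peak.

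The sixth region lay in 18q11.2 (chromosome 18, 19747979 to 19750181), the band of GATA6, a GATA factor of endoderm and heart. It scored 671 in K562 and 258 in JURKAT, and the nearest peak of another line lay 426 kb away. The seventh lay in 7q36.3 (chromosome 7, 156802089 to 156804645), the band of the motor neuron homeobox gene MNX1 and of the signalling gene SHH. It scored 371 in K562 and 357 in JURKAT, where 4 peaks fell in 1 K562 peak. The remaining 3 of the top 10 were in 2q31.2 (chromosome 2, 179058076 to 179060521), 2q31.1 again (chromosome 2, 170218113 to 170221141) and 14q13.2 (chromosome 14, 36002552 to 36004099). They scored 543, 278 and 288 in K562, against 242, 403 and 371 in JURKAT. Apart from the 4p16.3 region, the nearest peak of another line was 11.5 to 426 kb away from these 10.

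Other regions were strong in one list and near the bottom of the other. The largest percentile difference in favour of K562 was in 5q13.2 (chromosome 5, 72742124 to 72743583), the band of the forkhead gene FOXD1, with a score of 318 in K562 and 50.8 in JURKAT, percentiles 93.1 and 2.13. It was followed by 10q22.2 (chromosome 10, 77160854 to 77162645; scores 254 in K562 and 54.4 in JURKAT) and 21q22.3 (chromosome 21, 44494370 to 44495934; 203 in K562 and 54.9 in JURKAT). In the opposite direction, a region in 18q21.1 (chromosome 18, 45935053 to 45935656) scored 52.4 in K562 and 244 in JURKAT, percentiles 6.38 and 92.6. The next were in 10q23.2 (chromosome 10, 88125961 to 88126804; 51.9 in K562 and 229 in JURKAT) and 1q42.13 (chromosome 1, 230560476 to 230561547; 60.2 in K562 and 555 in JURKAT). In all 6 the weaker peak scored 60.2 or less, and the lowest score of either list is 50.

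Peaks of the other 5 lines tended to be far from these regions. The nearest one lay a median of 38.6 kb away, from 5 bp to 1041 kb. It lay within 1 kb for 44 regions (20.5%, Wilson 95% interval 15.6 to 26.4%, which covers counting error only) and within 10 kb for 68 (31.6%, interval 25.8 to 38.1%). Over all regions of exactly 2 lines a further line's peak lay within 1 kb in 46.3% and within 10 kb in 59.8%. For K562 with SIL-ALL, HPB-ALL and DND41 the 1 kb share was 45.9% (35.7 to 56.4%), 45.8% (33.7 to 58.3%) and 42.6% (31.0 to 55.1%). For JURKAT with REH and SUP-B15 it was 41.0% (33.1 to 49.5%) and 50.4% (41.4 to 59.4%). The shares nearest to that of the set were 25.6% for REH with SUP-B15 and 26.4% (19.0 to 35.5%) for K562 with REH. Regions of K562 alone had a peak of these 5 lines within 1 kb in 20.4% (18.4 to 22.5%), a share close to that of the set, and regions of JURKAT alone in 43.1% (41.4 to 44.9%). Within 10 kb the shares were 38.9% for K562 alone and 57.1% for JURKAT alone. With the common floor the 1 kb share was 8.57% for K562 with JURKAT, against 23.9 to 35.7% for K562 with the 3 other T-ALL lines, and with equal lists 16.5%, against 25.8 to 33.3%. K562 with REH was close to the set in both readings, at 10.3% (4.83 to 20.8%) with the common floor and 22.2% with equal lists. The median distance of 38.6 kb was the longest of the 21 pairs in the deposited lists, followed by 15.3 kb for K562 with REH. It was not the longest in the other readings: with the common floor it was 51.5 kb, against 54.9 kb for K562 with HPB-ALL and 49.9 kb with SUP-B15, and with equal lists 54.6 kb, against 56.5 kb for K562 with HPB-ALL. Pairs share their lines and regions are not replicates, so these differences were not tested.

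**Figure D3:**
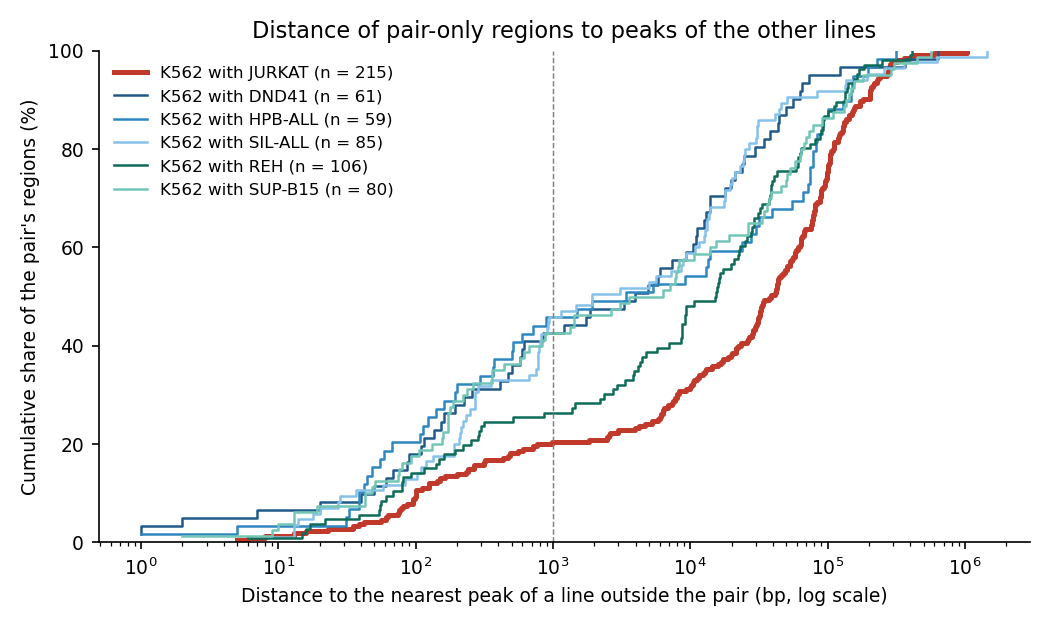
Cumulative share of regions (vertical axis, %) by distance to the nearest peak of a line outside the pair (horizontal axis, bp, log scale), for the regions that K562 shares alone with JURKAT (red) and with each of its 5 other partners; the dashed line marks 1 kb. The red curve runs lowest over most of the range, at 20.5% at 1 kb, while the curves of the 3 other T-ALL lines stand at 42.6 to 45.9% there.

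The 44 regions with a close neighbour were weaker in K562 than those far from any other line. Their median percentile was 30.1 in K562 and 58.1 in JURKAT and their median width 538 bp. The 53 regions more than 100 kb from another line's peak had medians of 61.7 in K562, 65.1 in JURKAT and 823 bp. The close neighbours came from all 5 lines: REH had a peak within 1 kb of 22 regions, DND41 of 20, SIL-ALL of 16, SUP-B15 of 13 and HPB-ALL of 11. A single other line was near in 24 regions, and all 5 were near in 2. Closest of all was a region in 2q22.3 (chromosome 2, 148602070 to 148602592), 5 bp from a peak of another line, followed by regions in 5q35.1 at 6 bp (chromosome 5, 172755770 to 172756118) and 9q34.11 at 8 bp (chromosome 9, 132649615 to 132650191). Their JURKAT peaks stood at percentiles 87.2, 72.1 and 94.4. The most isolated, picked out after the values were seen, lay in 18p11.23 (chromosome 18, 7566456 to 7567326), 1041 kb from the nearest peak of another line, with scores of 163 in K562 and 187 in JURKAT.

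The regions were spread over all autosomes and chromosome X, with 1 region on X and none on Y. Chromosome 1 had most, 26, followed by chromosome 11 with 21 and chromosome 2 with 19. Chromosome 11 held 9.77% of the regions (Wilson 95% interval 6.48 to 14.5%), against 4.95% of all K562 peaks, 5.38% of all JURKAT peaks and 5.31% of all regions these lines share. Of the 145 regions on chromosome 11 with a peak of both lines, 14.5% had no peak of another line, while the share over all chromosomes was 7.88%. Chromosome 16 was low, with 4 regions (1.86%, interval 0.726 to 4.69%) against 5.47% of K562 peaks and 4.27% of JURKAT peaks, and chromosome 13 had 1 region. The chromosomes were compared after their values were seen and no test was made. The intervals count every region as separate, yet on chromosome 11 some were close neighbours, 3 within 8 kb in 11p13 and 2 within 1.5 kb in 11p15.3. Giemsa-light bands, which tend to be rich in genes, held 131 regions (60.9%, interval 54.3 to 67.2%), against 65.4% of all merged regions, 68.3% of K562 regions and 63.8% of JURKAT regions.

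**Figure D4:**
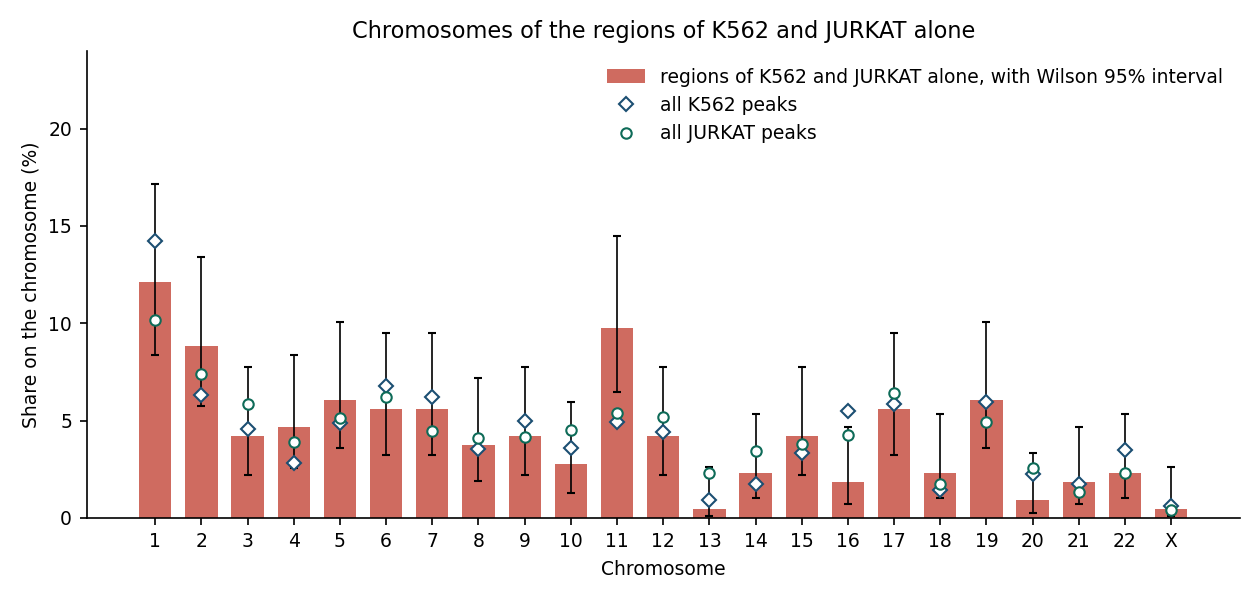
Share of the 215 regions on each chromosome (bars, %, with Wilson 95% intervals for counting error), beside the share of all K562 peaks (diamonds) and all JURKAT peaks (circles). On chromosome 11 the bar, 9.77%, lies above both markers, 4.95% and 5.38%, and on chromosome 16 the bar, 1.86%, lies below both.

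Single bands mostly held single regions: 126 bands had 1, 26 bands had 2 and 10 bands had 3 or more. After 2q31.1 with 6 came 19p13.3 with 5 and 11p13 and 2p13.2 with 4 each. Regions within 1 Mb of each other formed 8 windows of 3 regions. The tightest of these lay in 11p13, where 3 regions fell within 8 kb (chromosome 11, 31831055 to 31832775, 31832836 to 31833760 and 31838278 to 31839031). Their scores were 460, 98.4 and 204 in K562 and 178, 165 and 382 in JURKAT, so the strongest K562 peak and the strongest JURKAT peak were in different regions of the window. The window held 3 more regions, all of K562 or JURKAT alone, and the nearest peak of another line was 273 kb away. Band 11p13 holds PAX6, the homeobox gene of eye and forebrain, WT1, and the T-ALL oncogene LMO2.

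The next tightest window lay in 2q31.1 and contained the second strongest region described above. Its 3 regions (chromosome 2, 176943839 to 176944890, 176993146 to 176994124 and 176994128 to 176995743) spanned 51.9 kb. Their scores were 153, 178 and 515 in K562 and 97.0, 102 and 766 in JURKAT, so the same region was strongest in both lines. Between the first and the second region DND41 had 2 peaks and SUP-B15 had 1, 13 kb or more from the regions of the set. K562 had further peaks of its own on both sides.

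The 4 bands with 4 or more regions were picked out after their counts were seen. The fourth region of 11p13 lay outside the window (chromosome 11, 35639383 to 35641895) and scored 996 in K562 and 179 in JURKAT. Of the 6 regions of 2q31.1, 2 were in neither the top 10 nor the window. One (chromosome 2, 171571200 to 171572308) scored 72.7 in K562 and 494 in JURKAT, percentile 98.1 of the JURKAT list, and lay 101 kb from any other line's peak. The last (chromosome 2, 171672105 to 171672572) scored 78.6 in K562 and 124 in JURKAT, 609 bp from a peak of another line. In 2p13.2, the band of the homeobox gene EMX1, 2 of the 4 regions were neighbours (chromosome 2, 73142846 to 73143434 and 73144430 to 73146103). They scored 73.7 and 611 in K562, against 101 and 73.4 in JURKAT, so the lines again had their stronger peak in different regions. The 5 regions of 19p13.3 scored 61.0 to 488 in K562 and 51.4 to 159 in JURKAT. The strongest (chromosome 19, 5339339 to 5341068) scored 488 in K562 and 159 in JURKAT and was 111 kb from other lines. Band 19p13.3 held 537 of the 29071 merged regions, against 108 in 2q31.1, 63 in 11p13 and 36 in 2p13.2. Along the chromosomes the median gap between neighbouring regions of the set was 4.84 Mb, and 9 of the 192 gaps were 1 kb or less.

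**Figure D5:**
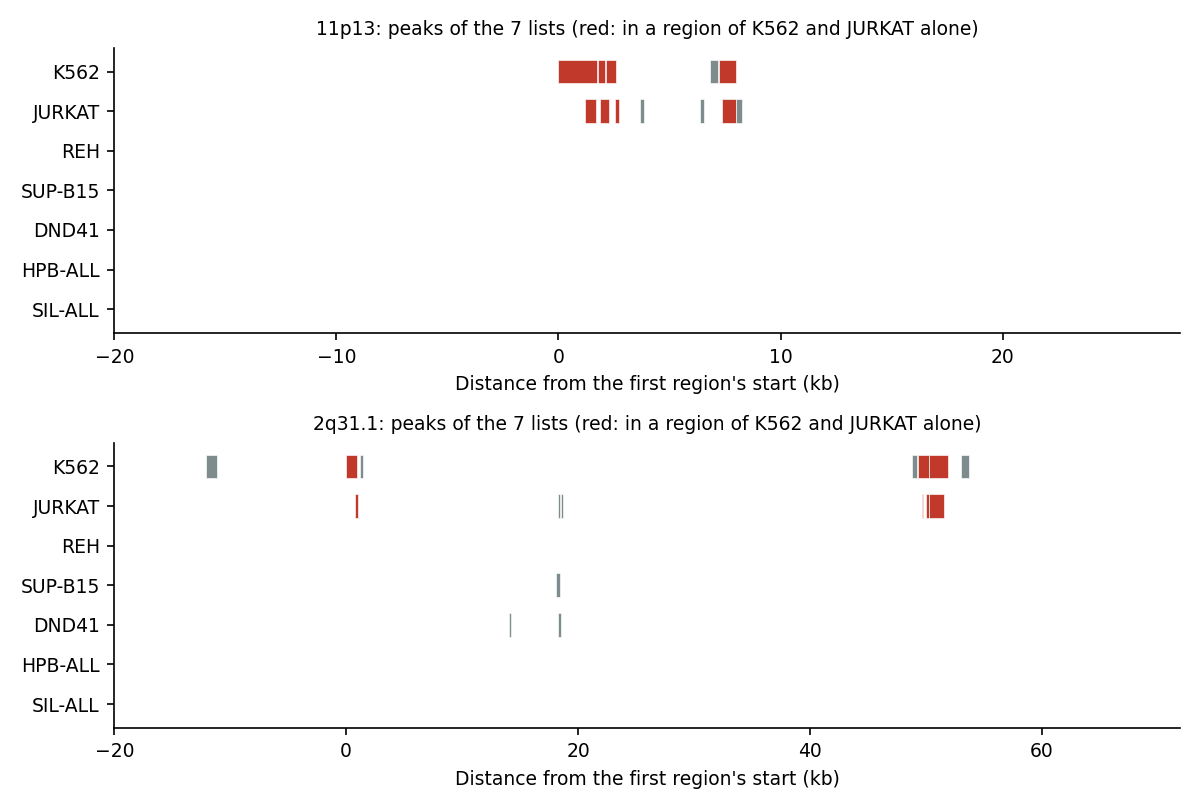
Peaks of the 7 lists (rows, K562 and JURKAT at the top) around the 3 regions in 11p13 (upper panel) and the 3 in 2q31.1 (lower panel), by distance from the start of the first region (horizontal axis, kb); red peaks belong to regions of K562 and JURKAT alone and grey peaks do not. In 11p13 the 5 other lines have no peak in the plotted stretch, and in 2q31.1 SUP-B15 and DND41 have peaks between the regions.

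These regions are the outer edge of what K562 and JURKAT share. The lines had 2730 regions in common, of which 709 were common to all 7 lines and 748 to 6. The 215 regions were 7.88% of the 2730 (Wilson 95% interval 6.92 to 8.95%). The same share was 3.51% for K562 with SIL-ALL, 2.62% with HPB-ALL and 2.45% with DND41, and 5.85% for K562 with REH. The order with REH turned in the other readings: the share was 9.70% for K562 with JURKAT, against 9.90% for K562 with REH, with equal lists, and 7.11%, against 7.30%, with the common floor. Regions shared with 4 or 5 further lines had higher median percentiles than the set in both lists. The median JURKAT percentile was 64.4 in the set, 64.9 with 1 further line, 65.1 with 2, 71.2 with 3, 80.2 with 4 and 89.1 with all 5. The median K562 percentile was 57.1 in the set, 56.8 with 1 further line, 55.0 with 2, 57.9 with 3, 63.6 with 4 and 74.1 with all 5. The median width was 726 bp in the set and 1695 bp with all lines, where a region joins the peaks of more lists. A wider region can hold more peaks of a line, and its percentile is that of the best one.

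The rule counts any overlap, and few regions sat at its edge. In 14 of the 215 the common stretch was 100 bp or less and in 1 it was 10 bp or less. That region lay in 15q21.2 (chromosome 15, 50474522 to 50475029), where the peaks shared 2 bp. The next shared 21 bp in 22q13.1 (chromosome 22, 39639111 to 39640550) and 40 bp in 3p22.3 (chromosome 3, 33759144 to 33759665). Just outside the rule, a region of K562 alone and one of JURKAT alone lay next to each other within 100 bp at 12 places and within 500 bp at 51. The closest were 17 bp apart in 1p36.23 (K562 peak at chromosome 1, 7740056 to 7740850, JURKAT peak at 7740868 to 7741057) and in 2q35 (K562 peak at chromosome 2, 219824516 to 219824897, JURKAT peak at 219824330 to 219824498). In a further case, in 18p11.32, the gap was 25 bp.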

How the data were processed

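The data were 7 KDM2B ChIP-seq peak lists, 1 per line. Input libraries are labelled for 5 lines and no input data entered the analysis. Reads were aligned, per the submitters' processing notes, with Bowtie 1.1.1 to hg19, and checked with FastQC 0.10.1. The deposited score of each peak is the authors' own value. Peak names in the files begin with MACS, and of the caller no version, control or cut-off was used or known here. Read depth is unknown, so a missing peak does not show missing binding, and intervals cover counting error only.

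Peaks were merged, counted and ranked in Python 3.11.15 with pandas 2.3.3 and scipy 1.17.1, and the counting was tested on simulated lists. Positions are hg19, counted from 1, with bands from circlize 0.4.16 by midpoint. The gene and promoter tables at hand are of GRCh38.p14, another build, so regions were not assigned to genes and no sequence is given. The set was chosen with earlier results of these data known. Named regions are the 10 with the highest mean percentile, the 3 with the largest difference each way, the 3 widest, the 3 with least overlap, the 3 nearest another line, the closest pairs outside the rule and the tightest window; the second window, the most isolated region and the bands with 4 or more regions were picked after their values were seen. With 1 list per line no test between lines or pairs was made, other than a check by Dixon's ratio for an outlying line among the 5 other lines' counts of near regions, which found none. It cannot show that these lines are alike, since it rests on 5 counts from lists of unequal length and lowest score. The rule had also used these lists.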

Additional observations from a re-analysis of the deposited data

How the results depend on the processing

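No paired analysis was possible because there is a single list per line and no replicate. Of 62 alternative values, 49 stayed within 1.5 times the count or within the 95% interval of the share or median, and 13 moved. Of the 26 values for the count and the 1 kb share, 8 moved. Some alternatives could change little, such as autosomes alone, so the tally is no measure of stability. The count of 215 became 105 with a common score floor, 116 with the upper 50% of each list by score, and 75 when the K562 and JURKAT peaks had to overlap by 50% of both, which a peak narrower than 50% of its partner cannot meet. The floor and the upper 50% shorten the lists, and the cause was not tested further. It was 182 with equal lists, 208 with peaks merged within 500 bp, 202 with 100 bp of direct overlap and 214 on autosomes alone. Without 1 of the other lines it ranged from 251 (without SUP-B15) to 283 (without REH), as fewer lines can only add regions. The share with another line within 1 kb, 20.5%, became 8.57% with the common floor, 13.8% with the upper 50% by score, 2.88% with 500 bp merging, which absorbs near neighbours, 26.7% with 50% overlap and 31.6% within 10 kb in place of 1 kb. It ranged from 15.9 to 23.5% with a line left out. With equal lists the share was 16.5% and JURKAT with SIL-ALL had less, 14.9%. The median percentile moved to 49.2 in JURKAT with equal lists and to 66.3 in K562 with the common floor, each taken anew within the shortened list. With 50% overlap it moved to 30.6 in K562 and 75.2 in JURKAT, on the scale of the deposited lists.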

Other observations

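A further 226 regions had a peak of K562, JURKAT and exactly 1 other line. That line was REH in 63, SIL-ALL in 54, HPB-ALL in 42, DND41 in 35 and SUP-B15 in 32, so the B-cell line REH was the most frequent. The REH list of 8146 peaks is shorter than those of the T-ALL lines. It reaches down to a score of 50, as does that of SUP-B15, against 60 in DND41 and 80 in SIL-ALL and HPB-ALL. These counts were not taken with the common floor, and the bearing of length or lowest score was not tested. Of the 215 regions, 1 lay in a band that covers a centromere, 2q11.1 (chromosome 2, 96010898 to 96013221; scores 521 in K562 and 177 in JURKAT), and 1 in the variable band 16q11.2 (chromosome 16, 46918057 to 46919395; 317 in K562 and 190 in JURKAT). Neither region was chosen by the rule for named regions, and both were picked for their band.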
